A study of Rattus norvegicus with 9 samples.

Results

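Syndecans and glypicans are the membrane-bound carriers of heparan sulfate, and 9 of their genes were followed here across 3 tissues of the early rat kidney. The members were every probe set whose single gene symbol was Sdc1 to Sdc4, Gpc1 to Gpc4 or Gpc6. They came to 18 of the 31042 probe sets that are no array controls and to 9 of 14217 named genes, with 9 probe sets for the 4 syndecans and 9 for the 5 glypicans. The tissue was dissected from embryos of Sprague-Dawley rats on embryonic day 13, was not cultured, and was measured on 9 single-colour Affymetrix arrays. The ureteric bud (UB) is the epithelial outgrowth that enters the kidney mesenchyme and branches, and 3 arrays held pools of about 100 UBs each. The Wolffian duct with attached mesodermal cells (WD+IM) had 3 arrays of about 50 pieces each. The Wolffian duct alone (WD), the tube from which the bud grows, had 3 arrays of about 100 pieces each. All pools are wild-type tissue as far as the labels say, and the UBs alone were freed by a light trypsin digestion, whose effect and that of the tissue cannot be told apart. Each array is labelled a biological replicate of its tissue, and precision is limited by having 3 of them. The median signal of an array was 534 to 897 intensity units.

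Syndecans are transmembrane core proteins with a short cytoplasmic tail, and glypicans are core proteins held in the outer leaflet of the membrane by a glycosylphosphatidylinositol anchor. Both carry heparan sulfate, a sulfated sugar chain that binds fibroblast growth factors, Wnt and BMP proteins, GDNF and matrix proteins and presents them to their receptors. In the kidney, heparan sulfate is needed for the bud to grow out and branch, and loss of GPC3 in people and mice gives overgrowth with malformed kidneys.

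Marker genes of the labelled tissues were present, and so were those of other cell types, also in WD. Counts here are of genes called in the fit below, where 13.4% of all genes were higher and 19.6% lower in UB than in WD. In WD+IM against WD these shares were 6.47% and 8.24%. Of 6 bud tip genes tested, 6 were higher in UB than in WD. Of 14 duct epithelial genes, 13 were lower in WD+IM than in WD, and 2 were higher and 6 lower in UB than in WD. Their summed signal was 219004 to 230457 intensity units in UB, 80660 to 122385 in WD+IM and 265779 to 281340 in WD. Of 12 mesenchymal genes, 11 were lower in UB than in WD and 8 were higher in WD+IM than in WD, with sums of 10297 to 13805 in UB, 228619 to 271196 in WD+IM and 104134 to 138923 in WD. The endothelial list of 11 genes summed to 3339 to 4411 in UB, 45199 to 45694 in WD+IM and 5196 to 6673 in WD. Of 5 genes of intermediate mesoderm and coelomic lining, 4 were lower in UB than in WD, and 2 were higher and 1 lower in WD+IM than in WD. Their sums were 3084 to 4067 in UB, 56337 to 66582 in WD+IM and 35439 to 37782 in WD. All 5 red cell genes tested were lower in UB than in WD, with sums of 2751 to 7653 in UB, 75651 to 120202 in WD+IM and 77538 to 131666 in WD. The WD arrays thus held signal of mesenchymal, coelomic and red cell genes well above that of the UB arrays. Smooth muscle and macrophage genes were also lower in UB than in WD, with 4 of 5 and 5 of 9 called, and summed to 2892 to 3274 and 1899 to 2939 in UB, 22164 to 27845 and 6233 to 8816 in WD+IM, and 7487 to 8245 and 4309 to 7290 in WD. The sums of 2 other lists were higher in UB than in WD. Of 5 nephron progenitor genes, 2 were higher and 1 lower in UB than in WD. They summed to 18816.5 to 24021 in UB, 32853 to 51398 in WD+IM and 14763 to 15350 in WD. Of the 2 neural crest and neuron genes tested, 1 was higher and 1 lower in UB than in WD, with a median difference of -0.02 on the log2 scale. They summed to 1371 to 2269 in UB, 1956 to 2113 in WD+IM and 1081 to 1164 in WD. The part of all these cell types in the differences below was not tested. In such bulk samples fewer cells of a type cannot be told apart from less RNA per cell. Signal of the bioC control RNA, spiked into the labelled target, over that of bioB also differed. This ratio ran from 2.94 to 3.03 in UB and was 2.97 for WD+IM replicate 3, against 0.915 to 1.08 for the other 5 arrays.

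All 9 genes were tested, each through its probe set with the highest mean, on log2(intensity + 46) in a limma fit to all 9 arrays. A gene was called when its p-value, adjusted by Benjamini-Hochberg over all probe sets tested, was under 0.05. In UB against WD, Gpc1 and Gpc4 rose and Sdc4 and Gpc6 fell, so 4 of 9 members were called where 33.0% of the 10800 genes tested were (13.4% higher, 19.6% lower). In WD+IM against WD, Sdc2 rose and Sdc4 and Gpc6 fell, 3 of 9 against 14.7% of all genes (6.47% higher, 8.24% lower). In UB against WD+IM, Gpc1 and Gpc4 rose and Sdc2 fell, 3 of 9 against 30.2% (13.6% higher, 16.6% lower). The median member difference was 0.10, 0.05 and 0.17 on the log2 scale in these 3 comparisons, beside -0.08, -0.01 and -0.01 over all genes. Since each tissue enters 2 comparisons, these are not independent. Gpc1 and Gpc4 were highest in UB, Sdc2 in WD+IM, and Sdc4 and Gpc6 in WD. Sdc1, Sdc3, Gpc2 and Gpc3 were not called in any of their 12 tests with limma, 2 of which had an unadjusted p under 0.05. The arrays of the 2 tissues did not overlap for 6, 4 and 4 of the 9 members in the 3 comparisons, where this held for 51.8%, 32.4% and 49.9% of all genes. The shares called and not overlapping rest on 9 genes. Centring each array on its median shifts the median of all probe sets in UB minus WD to 0.34, from -0.12 as deposited, so directions here are relative to the deposited scaling.

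**Figure D1:**
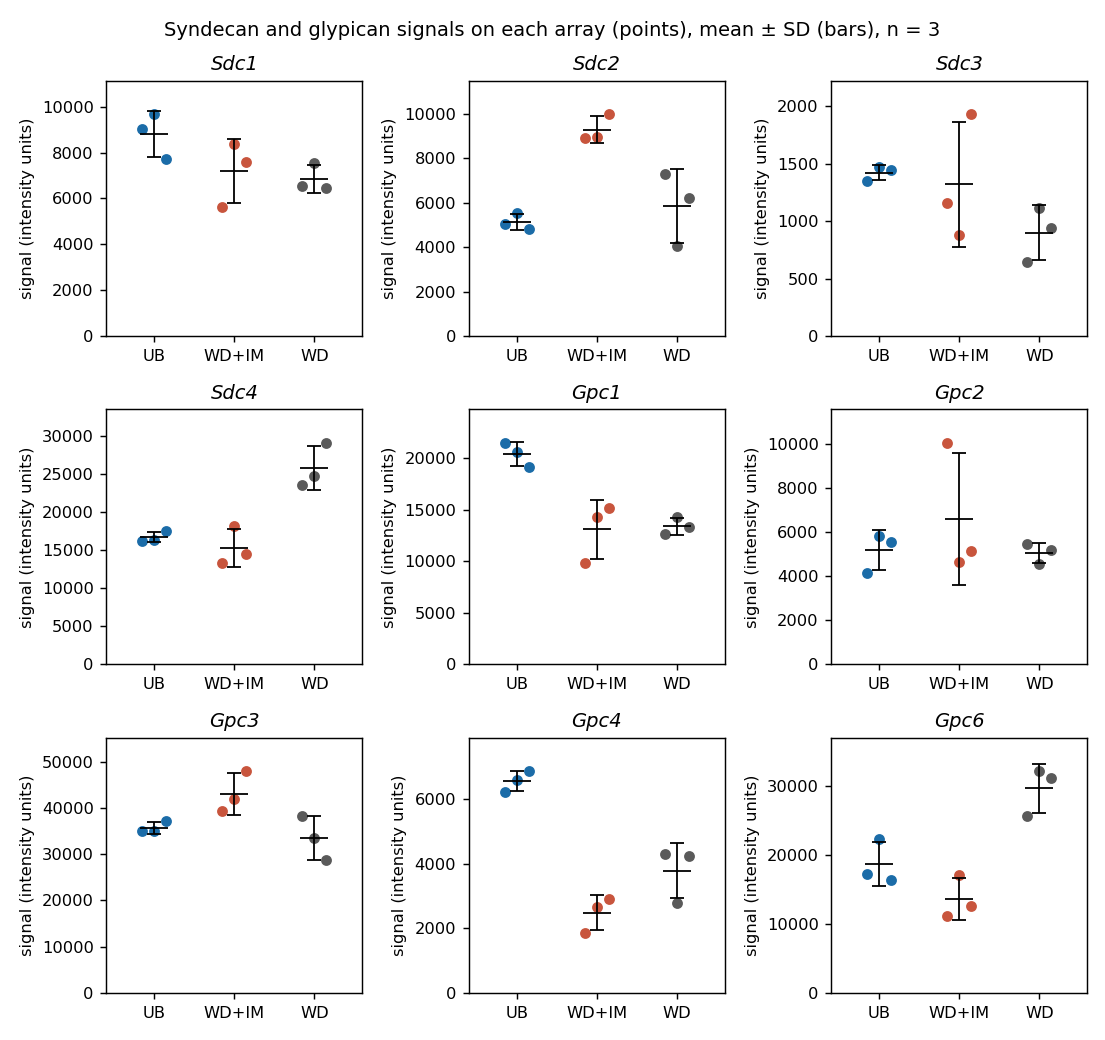
Signal in intensity units (y axes, linear from 0) of the 9 genes on each array, 1 panel a gene, with UB, WD+IM and WD along the x axis. Points are arrays and bars the mean ± SD (n = 3). The 3 UB points of Gpc4 lie above all others, at 6227 to 6869, and the 3 WD points of Sdc4 and of Gpc6 lie above those of both other tissues.

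**Figure D2:**
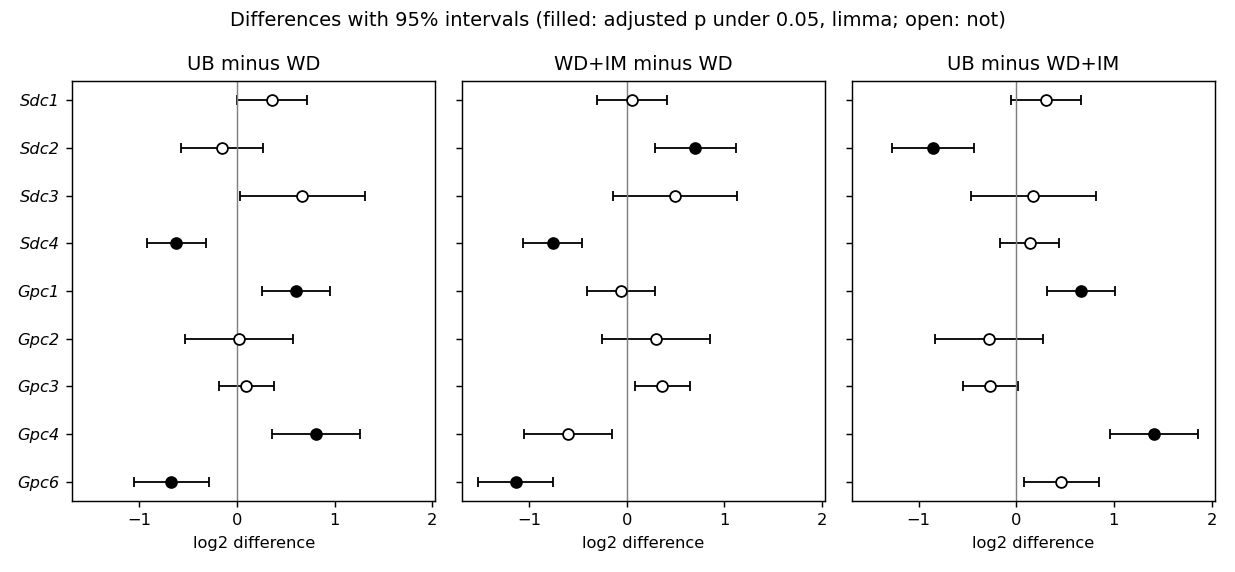
Log2 difference (x axes) with its 95% interval for each gene in the 3 comparisons, first-named tissue minus second. Filled points passed an adjusted p under 0.05 in limma, and open points did not. Gpc4 has the highest value in UB minus WD+IM, 1.41, and Gpc6 the lowest in WD+IM minus WD, -1.13.

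Sdc4, the widely expressed syndecan found at focal adhesions, had signals of 16223, 16360.3 and 17461 in UB and 13296, 18117 and 14493 in WD+IM, against 23556, 24739.5 and 29053 in WD. Every WD array lay above every array of the other tissues. The difference was -0.62 ± 0.14 (SE) in UB minus WD (adjusted p = 0.0063) and -0.76 ± 0.14 in WD+IM minus WD (adjusted p = 0.0035). That is 1.54-fold lower in UB and 1.69-fold lower in WD+IM on the scale with the pseudocount. Between UB and WD+IM it differed by 0.14 ± 0.14, with a 95% interval of -0.17 to 0.44. Centring each array on its median ended the call in UB minus WD (-0.16, adjusted p = 0.572) and in WD+IM minus WD (-0.66, adjusted p = 0.0514).

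Sdc2, a syndecan typical of mesenchymal and endothelial cells, was highest in the duct with mesoderm. Its signals were 5025, 5525 and 4819 in UB, 8915, 8976 and 9987 in WD+IM, and 7278, 4043 and 6233 in WD. The WD+IM arrays were the highest of the 9, and the UB and WD arrays overlapped. The difference was 0.70 ± 0.19 in WD+IM minus WD (adjusted p = 0.0314) and -0.85 ± 0.19 in UB minus WD+IM (adjusted p = 0.0057). UB minus WD was -0.15 ± 0.19, with an interval of -0.57 to 0.27. The call of the rise over WD was lost in 11 of 23 other settings, among them without each WD+IM array in turn (adjusted p = 0.0545, 0.0707 and 0.0964), without WD replicate 2 (0.46, adjusted p = 0.0693) and without UB replicate 1 (adjusted p = 0.0514). Median centring ended the call against WD+IM (-0.49, adjusted p = 0.13).

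Sdc1, the main syndecan of epithelia, had 9034, 9666 and 7696 in UB, 5632, 8363 and 7567 in WD+IM, and 6539.8, 7556 and 6438 in WD. The UB arrays lay above the WD arrays. The difference, 0.36 ± 0.17, did not pass (adjusted p = 0.122), with an interval from just below 0 to 0.72. Sdc3, a syndecan best known from nerve and muscle, had 1348, 1470.5 and 1443 in UB, 1158, 879 and 1929 in WD+IM, and 640.3, 1117 and 938 in WD. All UB values were above all WD values here too, at a difference of 0.67 ± 0.29 (adjusted p = 0.104). Both were called in UB minus WD with median centring (0.82 for Sdc1 and 1.13 for Sdc3) and with array weights (0.40 and 0.74), and Sdc3 with quantile normalization (0.93, adjusted p = 0.049). In WD+IM minus WD neither passed, with 0.05 ± 0.17 for Sdc1 and 0.50 ± 0.29 for Sdc3. Nor did they in UB minus WD+IM, with 0.30 ± 0.17 and 0.17 ± 0.29, although Sdc1 was called there with median centring (0.67, adjusted p = 0.0487).

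Gpc4, a glypican of epithelial and progenitor cells, showed the widest spread over tissues of the 9 members. It had signals of 6227, 6595 and 6869 in UB, 1870.0, 2654 and 2915 in WD+IM, and 4307, 2796 and 4234 in WD. The UB arrays stood apart from the rest, and WD+IM and WD overlapped through WD replicate 2. Gpc4 was 2.66-fold higher in UB than in WD+IM, a log2 difference of 1.41 ± 0.21 (adjusted p = 0.000269). This call was kept in 23 of 23 other settings, with values of 1.16 to 1.77. Against WD the difference was 0.81 ± 0.21 (adjusted p = 0.012). WD+IM minus WD was -0.60 ± 0.21 and did not pass (adjusted p = 0.0806), but it passed without WD replicate 2 (-0.80, adjusted p = 0.0278).

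Gpc1, a glypican found in many tissues and known as a co-receptor for fibroblast growth factors, was likewise highest in UB. Its signals were 21482, 20603 and 19133 in UB, 9816, 14335 and 15156 in WD+IM, and 12622, 14266 and 13338 in WD. The UB arrays were the 3 highest, and WD+IM and WD overlapped. The difference was 0.60 ± 0.16 in UB minus WD (adjusted p = 0.0142) and 0.66 ± 0.16 in UB minus WD+IM (adjusted p = 0.0085), while WD+IM minus WD was -0.06 ± 0.16, with an interval of -0.40 to 0.29. Without UB replicate 1 the call against WD was lost (0.57, adjusted p = 0.0601). Within the 4 arrays of high bioC to bioB ratio, where UB meets WD+IM replicate 3 alone, the difference was 0.43 (adjusted p = 0.076).

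Gpc6, a glypican known from growth plate and nerve, ran the other way and was highest in WD. It had 17289.6, 22379.5 and 16447 in UB, 11187, 17111 and 12694 in WD+IM, and 25689, 32197 and 31255 in WD. All WD values were above those of the other tissues, and UB and WD+IM overlapped. Gpc6 was 2.20-fold lower in WD+IM than in WD (-1.13 ± 0.18, adjusted p = 0.00123) and 1.59-fold lower in UB (-0.67 ± 0.18, adjusted p = 0.0138). Averaging the 4 Gpc6 probe sets ended both calls, at -0.42 in WD+IM minus WD (adjusted p = 0.37) and 0.18 in UB minus WD. UB minus WD+IM was 0.46 ± 0.18 (adjusted p = 0.0756) and passed with median centring (0.82) and without WD+IM replicate 2 (0.63). The fall in UB was not called with median centring (-0.21, adjusted p = 0.504), without UB replicate 1 (-0.62, adjusted p = 0.0582) or without UB replicate 3 (-0.59, adjusted p = 0.0556).

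Gpc3, the glypican mutated in Simpson-Golabi-Behmel overgrowth syndrome, had no call through its stronger probe set. Its signals were 34919.8, 34941 and 37169.7 in UB, 39256, 41914 and 47958 in WD+IM, and 38341, 33535 and 28774 in WD. WD+IM lay above both other tissues on all 3 arrays. Neither WD+IM minus WD, 0.36 ± 0.13 (adjusted p = 0.0885), nor UB minus WD+IM, -0.27 ± 0.13 (adjusted p = 0.163), passed. UB minus WD+IM was called with quantile normalization (-0.36, adjusted p = 0.0438) and with averaged probe sets (-0.999, adjusted p = 0.0144), but was 0.097 with median centring. UB minus WD was 0.10 ± 0.13, with an interval of -0.18 to 0.38. Gpc2, a glypican of the developing nervous system, had 4132, 5813 and 5557 in UB, 10036, 4630.3 and 5141 in WD+IM, and 5431, 4556 and 5171 in WD. WD+IM replicate 1 was far above the other arrays. Its differences were 0.02 ± 0.25, 0.30 ± 0.25 and -0.28 ± 0.25 in UB minus WD, WD+IM minus WD and UB minus WD+IM, and the intervals reach from -0.83 to 0.85 over the 3.

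All UB arrays had the high bioC to bioB ratio and all WD arrays the low one, so in UB against WD ratio and tissue cannot be told apart. The 4 calls in UB against WD were all lost when a term for this ratio was added, which can be set only through WD+IM replicate 3. The values then were -0.52 ± 0.26 for Sdc4, 0.25 ± 0.27 for Gpc1, 0.43 ± 0.36 for Gpc4 and -0.55 ± 0.33 for Gpc6, and they hang on that array. With the same term Gpc4 and Sdc2 were still called in UB against WD+IM, and Sdc4 and Gpc6 in WD+IM against WD. It ended the calls of Gpc1 in UB minus WD+IM (0.43, adjusted p = 0.264) and of Sdc2 in WD+IM minus WD (0.65, adjusted p = 0.0925). The beta-actin 3' to 5' signal ratio, a measure of RNA integrity, was 1.48 to 2.30 in UB, 1.47 to 1.92 in WD+IM and 2.19 to 4.87 in WD. With it as a covariate, Sdc4 and Gpc4 were still called in UB against WD, while Gpc1 (0.70, adjusted p = 0.0511) and Gpc6 (-0.65, adjusted p = 0.0942) were not, nor was Sdc2 in WD+IM against WD (0.93, adjusted p = 0.0986).

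Several members had more than 1 probe set, and these were compared. The 3 probe sets of Sdc2 gave 0.70, 0.41 and 0.53 in WD+IM minus WD and -0.85, -0.60 and -0.62 in UB minus WD+IM, all of 1 sign, of which 1 and 2 were called, where 12.7% and 25.5% of all probe sets tested were. The 2 stronger probe sets of Gpc6 gave -1.13 and -0.82 in WD+IM minus WD, both called. In UB minus WD, with 29.9% of all probe sets called, they gave -0.67, called, and -0.25 (adjusted p = 0.254). In UB minus WD+IM the second one passed, at 0.57 (adjusted p = 0.0215). The 2 weaker Gpc6 probe sets varied widely within tissues, with 588, 409 and 2883 in UB for one of them, and did not pass in any of 6 tests (0 with an unadjusted p under 0.05). Their differences in UB minus WD were 1.12 ± 0.65 and 0.53 ± 0.64, of opposite sign to the stronger ones. The second Sdc1 probe set, weaker but above the 40th percentile on all 9 arrays, had 1471, 1262 and 1255 in UB, 1004, 1219 and 1473 in WD+IM, and 1388, 1742 and 1276 in WD. The 3 tissues overlapped, and it gave -0.13 ± 0.22 in UB minus WD and -0.25 ± 0.22 in WD+IM minus WD, where the stronger set gave 0.36 and 0.05.

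The stronger of the 2 Gpc3 probe sets is described above. The weaker one had 174, 512 and 109.7 in UB, 2109, 433 and 635 in WD+IM, and 1138, 1262 and 849 in WD. It was called lower in UB than in WD (-2.06 ± 0.56, adjusted p = 0.017) and than in WD+IM (-1.73 ± 0.56, adjusted p = 0.0399), although the UB and WD+IM arrays overlapped. On 6 of the 9 arrays it was above the 40th percentile of the array, the limit of the filter on low values, and no detection calls were used. Among the UB arrays only replicate 2 was above it, so the probe set was tested mainly through WD and WD+IM. Its UB mean, 266, lay below the 40th percentile of each UB array. The sizes of both differences thus depend on the pseudocount. When all probe sets of a gene were averaged, Gpc3 fell in UB against WD (-0.98, adjusted p = 0.0154) and Gpc6 moved to 0.18 (adjusted p = 0.661). Of the 18 probe sets, 16 passed the filter. The other 2 belong to Sdc3, with 76.5 to 309 and 210.0 to 544 in UB, 127 to 357 and 34.8 to 212 in WD+IM, and 91.4 to 665 and 67.8 to 99.8 in WD.

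**Figure D3:**
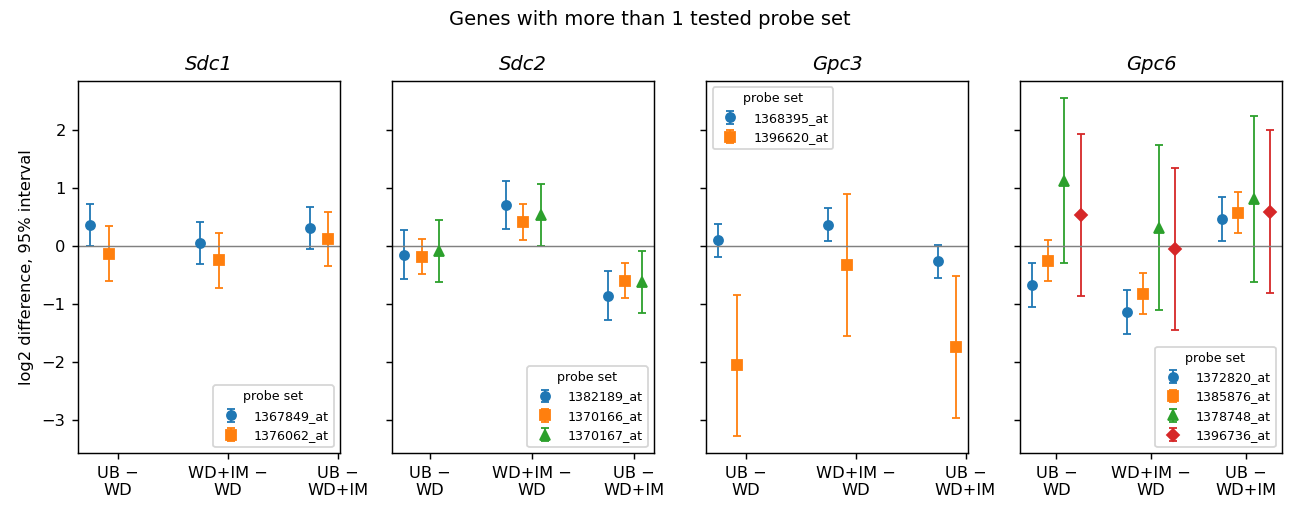
Log2 difference with its 95% interval (y axis) in the 3 comparisons (x axis) for each tested probe set of the genes with more than 1. The Sdc2 probe sets lie together, while the weaker Gpc3 probe set lies at -2.06 in UB minus WD, far from the stronger one at 0.10.

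Gpc3 and Gpc4 are near neighbours on chromosome X, with 4 annotated genes between them in the GRCr8 gene table, and their signals were set against each other. This uses the same values as the Gpc3 and Gpc4 results above. The log2 value of Gpc3 minus that of Gpc4, taken within each array so that a common scaling factor leaves it nearly unaltered, was 2.48, 2.40 and 2.43 in UB. It was 4.36, 3.96 and 4.02 in WD+IM and 3.14, 3.56 and 2.75 in WD. The 3 tissues did not overlap. The mean was 2.43 ± 0.04 in UB, 4.11 ± 0.22 in WD+IM and 3.15 ± 0.41 in WD (SD, n = 3 each). The differences were -0.72 in UB minus WD, 0.96 in WD+IM minus WD and -1.68 in UB minus WD+IM. In a two-sided exact permutation test each had p = 0.1, and 0.1 after adjustment over the 3, which is the smallest p that 3 arrays against 3 can give. The size of the value in 1 tissue depends on the probes and says nothing about which gene is more abundant.

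**Figure D4:**
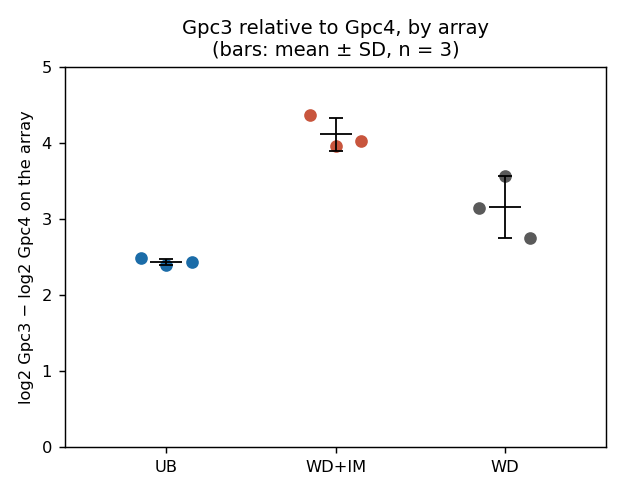
Log2 Gpc3 minus log2 Gpc4 on each array (y axis, linear from 0) in UB, WD+IM and WD. Points are arrays and bars the mean ± SD (n = 3). The UB points lie at 2.40 to 2.48, below all WD points, and the WD+IM points at 3.96 to 4.36, above them.

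The promoters of 6 of the 9 members were matched by symbol in RefSeq's table for GRCr8. The 250 bases upstream of the annotated start are shown for Gpc4 and Sdc4, because they differed in opposite directions between UB and WD, and for Gpc3, the neighbour of Gpc4 whose stronger probe set did not pass. They lie at chrX:136676058-136676307 (Gpc4), chr3:173592924-173593173 (Sdc4) and chrX:137157599-137157848 (Gpc3), each on the minus strand, and are written 5′ to 3′ on the strand of the gene. Capitals mark the GC box GGGCGG, a binding sequence of Sp1-type factors, and AGGAAG, a sequence bound by ETS factors, each on either strand.
Gpc4: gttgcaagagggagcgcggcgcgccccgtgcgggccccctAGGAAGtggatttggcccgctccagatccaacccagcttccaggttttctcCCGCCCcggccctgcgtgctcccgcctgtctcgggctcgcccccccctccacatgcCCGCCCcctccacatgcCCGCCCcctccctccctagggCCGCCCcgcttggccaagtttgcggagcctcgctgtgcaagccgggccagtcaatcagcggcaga
Sdc4: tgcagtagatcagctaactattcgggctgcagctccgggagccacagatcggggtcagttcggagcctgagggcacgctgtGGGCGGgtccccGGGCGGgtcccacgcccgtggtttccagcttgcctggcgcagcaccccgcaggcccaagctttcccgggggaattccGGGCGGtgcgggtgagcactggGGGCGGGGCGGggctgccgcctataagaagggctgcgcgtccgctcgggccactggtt
Gpc3: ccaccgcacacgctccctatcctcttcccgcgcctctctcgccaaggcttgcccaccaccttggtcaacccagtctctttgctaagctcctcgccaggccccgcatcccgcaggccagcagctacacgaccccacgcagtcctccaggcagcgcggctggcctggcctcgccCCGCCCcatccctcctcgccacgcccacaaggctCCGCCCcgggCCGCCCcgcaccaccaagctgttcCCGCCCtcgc

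The GC box matched 4 times in Gpc4, 4 times in Gpc3 and 5 times in Sdc4, where 2 of the matches overlap. It was present in all 6 member promoters that were matched and in 30.5% of the 33469 promoters of the table. The 6 windows were 60.8 to 80.0% G and C, against a median of 51.2% over the table. The ETS sequence matched in Gpc4 and Sdc3, 2 of 6, and in 29.5% of all promoters. These are matches of letters and not measured sites, and they did not separate Gpc4, Sdc4 and Gpc3 by the GC box.

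The counts of called genes in the groups below stand beside 33.0%, 14.7% and 30.2% of all genes called in UB against WD, WD+IM against WD and UB against WD+IM. The other heparan sulfate proteoglycans were tested for comparison, and those of the basement membrane were, like Sdc4 and Gpc6, highest in WD. Of 11 listed, 6 could be tested, of which 3 fell and 0 rose in UB against WD, and 3 fell and 0 rose in WD+IM against WD. The same 3 genes fell in both. Hspg2, which encodes perlecan, differed by -1.28 ± 0.28 in UB and -1.22 ± 0.28 in WD+IM, Agrn, which encodes agrin, by -0.58 ± 0.15 and -0.68 ± 0.15, and Col18a1, the collagen XVIII gene, by -1.24 ± 0.18 and -1.06 ± 0.18. The list medians were -0.61 in UB minus WD and -0.59 in WD+IM minus WD, beside -0.08 and -0.01 over all genes. In UB against WD+IM, Nrp1, a semaphorin and VEGF co-receptor that can carry such chains, rose by 0.95 ± 0.17 and Srgn, the proteoglycan of blood cell granules, fell by 1.81 on the log2 scale, a call that was lost with quantile normalization (-1.27, adjusted p = 0.0501). With median centring, Agrn was not called in UB minus WD (-0.12) or in WD+IM minus WD (-0.58), and with the bioC to bioB term 0 of the 6 genes were called in UB against WD. Gpc5, the neighbour of Gpc6 on chromosome 15, was matched to no probe set.

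Genes that release core proteins or trim their chains went in both directions. Of 16 listed, 10 could be tested. Among these, 1 rose and 5 fell in UB against WD, 4 rose and 1 fell in WD+IM against WD, and 0 rose and 4 fell in UB against WD+IM. The 2 sulfatases that remove 6-O-sulfate from heparan sulfate outside the cell differed from each other. Sulf1 had a mean of 196 in UB, 4138 in WD+IM and 1084 in WD, with -2.23 ± 0.25 in UB minus WD and 1.85 ± 0.25 in WD+IM minus WD. Sulf2 rose in both, by 0.70 ± 0.11 and 0.89 ± 0.11, and UB minus WD+IM was -0.20 ± 0.11 (adjusted p = 0.223). Among proteins tied to shedding, Timp3, an inhibitor of the syndecan-cleaving metalloproteinases, changed by -2.80 ± 0.23 in UB minus WD and 0.85 ± 0.23 in WD+IM minus WD. Mmp2, a gelatinase, changed by -2.34 ± 0.18 and 0.76 ± 0.18. Gdpd2, a phosphodiesterase gene, changed by -1.51 ± 0.35 in UB minus WD+IM. Sulf1, Gdpd2 and Srgn had UB means below the 40th percentile of each UB array, and the sizes of their differences that involve UB depend on the pseudocount. The next genes, Adam17 and Furin, were named after their values were seen. The sheddase gene Adam17 fell in WD+IM against WD (-0.45 ± 0.13), and Furin, a protease that cleaves the GPC3 core, fell in UB against WD (-0.56 ± 0.16). The calls of Adam17 and Furin were lost with median centring (-0.36 and -0.10).

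Of 9 genes for starting or extending the chain, 1 rose (B3galt6, 0.93 ± 0.30) and 1 fell (Extl2, -1.46 ± 0.28) in UB against WD, 2 of 9 beside 33.0% of all genes. In UB against WD+IM, Extl3 rose (0.56 ± 0.16) and Extl2 fell. By limma, 0 were called in WD+IM against WD, beside 14.7%, where 1 gene had an unadjusted p under 0.05. That gene, named after its value was seen, was Ext1, a subunit of the chain polymerase (0.53 ± 0.19, adjusted p = 0.0931). Of 14 cytoplasmic partners, 2 rose and 2 fell in UB against WD, near the share of all genes, 2 rose and 2 fell in WD+IM against WD, and 3 rose and 3 fell in UB against WD+IM. In UB against WD, Gipc1, which binds the syndecan tail through its PDZ domain, rose by 0.88 ± 0.20. Arf6, a GTPase of syndecan recycling, rose by 0.85 ± 0.23 in UB against WD. Prkca, the kinase activated by the Sdc4 tail, changed by -1.51 ± 0.32 in UB minus WD. Sdcbp2, a relative of syntenin, changed by -1.40 ± 0.48 there, with overlapping arrays and a call lost with median centring (-0.94) and quantile normalization (-0.78). The UB mean of Sdcbp2, 235, lay below the 40th percentile of each UB array. That of Prkca, 297, lay within the range of these percentiles, 270 to 329. The sizes of both differences thus depend on the pseudocount. Sdcbp, which encodes syntenin, differed by 0.35 ± 0.13 in UB minus WD and did not pass (adjusted p = 0.0543). In WD+IM against WD, Cask, a scaffold protein that binds Sdc2, rose by 0.85 ± 0.20 and Actn1 by 0.73 ± 0.19, while Ezr and Src changed by -0.99 ± 0.12 and -0.94 ± 0.19. Ezr and Src changed by 0.79 ± 0.12 and 0.78 ± 0.19 in UB minus WD+IM. The kinase gene Fyn changed by -0.65 ± 0.17 there, a call lost with median centring (-0.29).

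Genes listed as ligands of heparan sulfate or as partner receptors of glypicans went in both directions, and binding was not measured. Of 24 ligands listed, 16 passed the filter on low values, and Gdnf and several fibroblast growth factor genes were among those that did not. Among the 16 tested, 4 rose and 6 fell in UB against WD. In WD+IM against WD 7 of these ligands rose and 2 fell, and in UB against WD+IM 3 rose and 9 fell. Their medians were -0.15, 0.62 and -0.60. With median centring, the falls of Fn1 (-0.33), Vegfa (-0.06) and Bmp4 (-0.88) in UB against WD were not called, while those of Igf2, Bmp2 and Slit3 still were. Wnt11, a ligand of the bud tip, was called higher in UB, with a mean of 3892 in UB and of 25.2 in WD. The WD mean is below the pseudocount, so no size is given, and the gene passed the filter on low values only through the other tissues. Wnt11 is also counted among the bud tip genes above and among the ligands that rose in WD+IM against WD. That rise, with a WD+IM mean of 445, rests on the same WD mean. Igf2, an insulin-like growth factor, had the smallest p of the ligands in UB against WD, with means of 20834 in UB, 108281 in WD+IM and 120415 in WD. It differed by -2.52 ± 0.16 in UB minus WD and -2.36 ± 0.16 in UB minus WD+IM. Ptn, the growth factor pleiotrophin, rose by 0.93 ± 0.19 in UB and by 1.56 ± 0.19 in WD+IM, each against WD. Cxcl12 rose by 1.23 ± 0.20 and 3.93 ± 0.20, and Bmp2 changed by -1.79 ± 0.22 and 1.99 ± 0.22. Slit2, a ligand of Robo receptors, changed by -1.39 ± 0.17 in WD+IM minus WD, and Fn1, the fibronectin gene, by -1.75 ± 0.16 in UB minus WD+IM. Of 13 partner receptors, 3 rose and 6 fell in UB against WD, 2 rose and 4 fell in WD+IM against WD, and 3 rose and 6 fell in UB against WD+IM. Ret and Gfra1, which receive GDNF, rose in UB against WD by 2.62 ± 0.20 and 1.38 ± 0.18, and Robo2, a Slit receptor, by 2.00 ± 0.22. Ret and Gfra1 were called lower in WD+IM than in WD, at -1.92 ± 0.20 and -1.58 ± 0.18. Fgfr2, the receptor for epithelial fibroblast growth factor signals, had the order of Gpc6, with -1.01 ± 0.13 in UB minus WD and -1.18 ± 0.13 in WD+IM minus WD, although the first of these was -0.55 with median centring (adjusted p = 0.0506). Fgfr1 rose in WD+IM against WD by 0.51 ± 0.13, a call lost with median centring (0.61, adjusted p = 0.0643). The endocytic receptor genes Lrp1 and Igf2r changed by -2.08 ± 0.22 and -1.23 ± 0.13 in UB minus WD+IM. Among the other receptors that fell in UB against WD, Smo (-0.11), Igf2r (-0.31) and Fgfr1 (-0.04) were not called with median centring. Lrp1 (-1.15) and Igf1r (-0.75) still were, so the number of falls depends on the scaling.

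**Figure D5:**
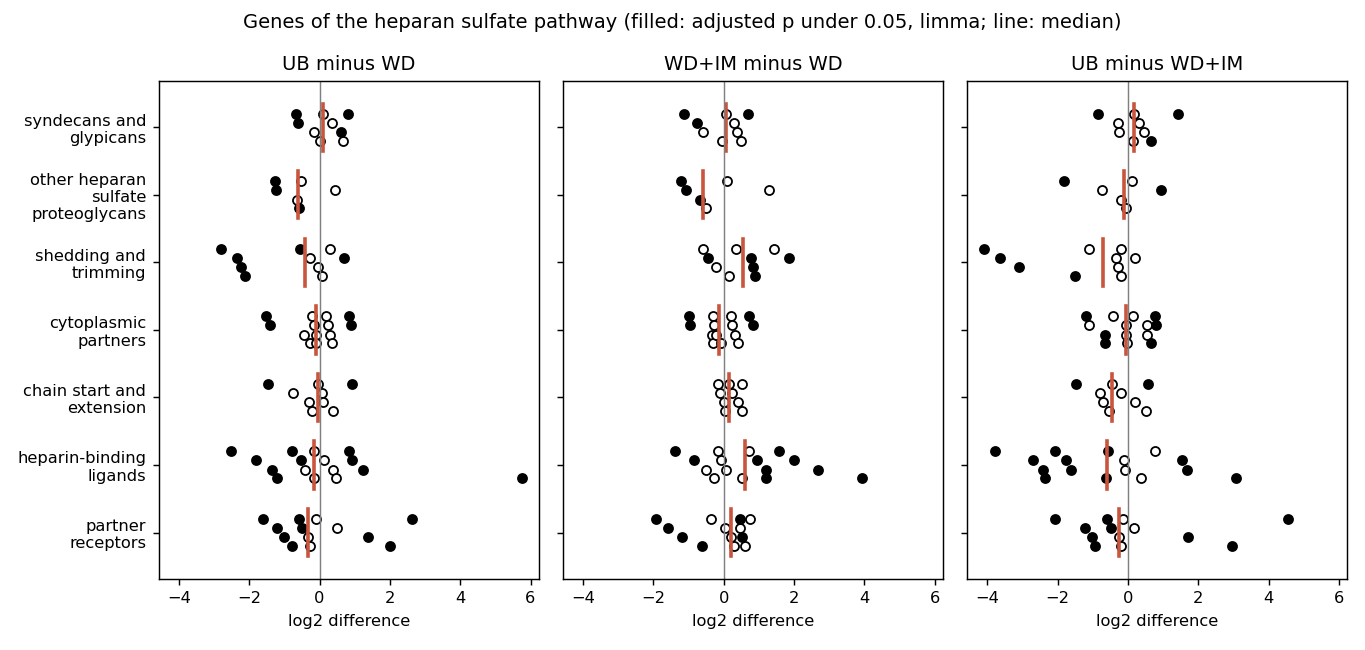
Log2 differences (x axes) of the tested genes of 7 groups in the 3 comparisons. Filled points passed an adjusted p under 0.05 in limma, open points did not, and the line is the median of the group. The 9 syndecans and glypicans lie between -1.13 and 1.41. The outermost point is Wnt11 for the ligands in UB minus WD, and Sulf1 for the sulfatases and proteases in UB minus WD+IM. Each of these 2 points rests on a tissue with a signal below the 40th percentile of its arrays, so its position depends on the pseudocount.

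The genes most like each member were found by the mean absolute distance between log2 profiles over the 9 arrays, each centred on its own mean, among 10629 genes with an established symbol. For Gpc4 they were Phyh, Map3k8 and Slc25a10, at distances of 0.13 to 0.15. For Gpc1 they were Atox1, Pes1 and Mrps6 (0.06 to 0.07), for Gpc6 Itpr1, Ptpn14 and Iqgap1 (0.09 to 0.13), for Sdc4 Patj, Grip1 and Zbtb42 (0.08 to 0.09) and for Sdc2 Etfb, Tmem131l and Bok (0.08 to 0.10). For Gpc3, whose range was only 0.74, they were Gmpr2, Ammecr1l and Ugp2 (0.05 to 0.07), and for Sdc1 Hif1a, Yars1 and Letm1 (0.05 to 0.07). For Gpc2 they were Prtg, Filip1l and Brca2 (0.11 to 0.14), and for Sdc3, where the distances were the widest, Cops6, Kcns3 and C1h10orf143 (0.16).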

How the data were processed

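The authors deposited one intensity per probe set and array on a linear scale, made with GCOS, the Affymetrix operating software, per the submitters' processing notes. The sources used here do not give its version, algorithm or settings. All 9 arrays share a trimmed mean of 2501 with 2% left out at each end, so differences are relative to the other genes of an array.

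Of 31099 probe sets, 57 were array controls and 20826 had 1 gene symbol in the platform table, of which 20758 had their Entrez ID in the GRCr8 table and took its symbol. Tests used R 4.3.3 and limma 3.58.1 on log2(intensity + 46), where 46 is the 10th percentile of the deposited values. Probe sets above the 40th percentile of the array on 3 or more arrays were kept (20330). Group was the only term, with a mean-variance trend. The script was tested on simulated data. The rule named every member, up to 4 called genes per list and comparison with the smallest p, and 3 nearest profiles. Adam17, Bmp4, Ext1, Furin, Gdnf, Igf1r, Sdcbp, Slit3, Smo and Vegfa fall outside it and were chosen after their values were seen. Members and lists were chosen with earlier results of these data known. Samples were grouped by their titles. Alternatives were other scalings, pseudocounts, filters and variance models, fits of 2 groups, technical covariates, averaged probe sets, the replicate block and leaving out arrays. Fits within the array sets of high or low bioC to bioB ratio were added after the data were seen.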

Additional observations from a re-analysis of the deposited data

How the results depend on the processing

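Over 27 member differences and 612 refits, 545 kept direction and side of the threshold, 27 lost a call, 12 gained one and 28 turned sign. For 2 of the 28 a call was involved, both from averaging all probe sets of a gene, Gpc3 at -0.98 and Gpc6 at 0.18 in UB minus WD. The other 26 were called in neither setting. In UB minus WD, Gpc2 was at -0.0060 with quantile normalization, -0.15 with array weights, -0.13 with beta-actin and -0.072 to 0.17 without 1 array. Gpc3 was at -0.025 with quantile normalization, -0.14 with the spike ratio term and -0.0079 to 0.20 without 1 array. Sdc2 was at 0.31 with median centring, 0.043 with beta-actin and -0.39 to 0.026 without 1 array, and Sdc3 at -0.24 with the spike ratio term. In WD+IM minus WD, Gpc1 was at 0.040 with median centring, 0.0061 with array weights, 0.062 with beta-actin and -0.17 to 0.14 without 1 array. Gpc2 was at -0.046 to 0.51 without 1 array, and Sdc1 at -0.098 with averaged probe sets and -0.064 to 0.22 without 1 array. In UB minus WD+IM, Gpc2 was at 0.085 with median centring and -0.49 to 0.066 without 1 array. Gpc3 was at 0.097 with median centring, and Sdc3 at -0.43 with the spike ratio term or within the arrays of high ratio and -0.074 to 0.47 without 1 array. The number of members called in UB minus WD, 4, was 0 with the spike ratio term, 2 with the beta-actin covariate and 2 to 4 without 1 array, the lowest without UB replicate 1. It stayed within 1.5 times in the other settings and comparisons. Of 106 calls over members and lists, 79 were kept and 27 lost with median centring, and 101 kept and 5 lost with quantile normalization, 0 turning sign. Probe sets called in UB minus WD, 6073 (2297 higher, 3776 lower), were 798 with the spike ratio term, 3276 with the beta-actin covariate and 3713 without UB replicate 1. They were 5843 higher and 1530 lower with median centring, and 2510 and 2435 with quantile normalization. In UB minus WD+IM, 5176 (2228 higher, 2948 lower) became 2414 with the spike ratio term and 2499 within the arrays of high ratio, and 4610 higher and 1792 lower with median centring. In WD+IM minus WD, 2578 (1142 higher, 1436 lower) became 826 with the beta-actin covariate and 1379 within the arrays of low ratio, and 1244 higher and 921 lower with median centring. With the replicate number as a block, members called were 4, 3 and 4 against 4, 3 and 3, the gain being Gpc6 in UB minus WD+IM (adjusted p = 0.031). Same-numbered arrays correlated at -0.35 to 0.28 in their deviations and 3 of 9 correlated best with their own number. With 3 arrays per tissue this cannot settle whether the numbers pair the arrays. Gpc3 minus Gpc4 kept its sign in each setting run, which median centring cannot alter for a difference within an array. Its p in the exact permutation test stayed at 0.1 or 0.2, where no call was possible. The causes of these changes were not tested, and the absence of detection calls limits what can be said of the weak probe sets.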
